A study of Mus musculus with 4 samples.

Results

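The 10 genes described here encode myeloid inflammatory cytokines and chemokines, and were compared between WT and Ybx1 knockout mouse leukemia cells. They are Il1b, Il1rn, Tnf, Tnfsf9, Ccl3, Ccl4, Ccl6, Ccl9, Cxcl2 and Osm. They were taken by gene symbol from a deposited table of 55339 genes, where all 10 have a row and all 10 passed the filter on low values that left 17303 tested genes. The study profiled polyadenylated RNA of leukemia cells from the bone marrow of C57BL/6 mice by RNA sequencing. There were 2 libraries of genotype WT (replicates 4 and 5) and 2 of genotype YBX1-/-, titled cKO (replicates 1 and 3, called knockout here). Knockout replicate 3 has RNA-seq2 in its title and the other libraries RNA-seq1. The labels name no Cre driver, leukemia oncogene, age or sex, and do not say whether each library is 1 animal or a pool, so the p-values measure the spread between these libraries, which may be technical.

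Cytokines and chemokines of this kind are made by neutrophils, monocytes and macrophages after a danger or microbial signal reaches Toll-like or cytokine receptors. The NF-kB transcription factors then switch their genes on within a short time. Many of the mRNAs are short-lived, because AU-rich elements in their 3′ UTRs recruit decay proteins of the TTP (Zfp36) family. YBX1 is an RNA-binding protein with a cold-shock domain, and the series title asks how it keeps myeloid leukemia cells alive through mRNA stability.

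The elements of AUUUA type in these mRNAs are shown because mRNA stability is the question of the study. Each 3′ UTR was read from the GENCODE M21 transcript (GRCm38) with the longest one, on the mRNA strand and in DNA letters. The 30 bases richest in overlapping ATTTA are given for 5 of the genes, with ATTTA in capitals.
Tnf (chr17:35199678-35199707, minus strand): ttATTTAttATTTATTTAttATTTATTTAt
Cxcl2 (chr5:90905327-90905356, plus strand): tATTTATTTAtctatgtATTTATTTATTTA
Il1b (chr2:129364802-129364831, minus strand): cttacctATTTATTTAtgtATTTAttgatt
Ccl3 (chr11:83648075-83648104, minus strand): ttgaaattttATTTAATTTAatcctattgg
Tnfsf9 (chr17:57107603-57107632, plus strand): aactggacttggtATTTAttctgagcatag

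Cxcl2 held 11 copies of ATTTA in a 3′ UTR of 1494 bases and Tnf 8 in 764 bases. Osm had 6, Ccl3 and Ccl9 had 5 each, Il1b and Ccl6 had 4 each, and Tnfsf9 and Ccl4 had 2 each. Il1rn, with 1864 bases, had 0. The longer motif TTATTTATT, whose matches overlap those of ATTTA, was present in Tnf (5 copies) and Cxcl2 (4 copies) and in none of the other 8. Among 13290 genes with a 3′ UTR between the shortest and longest of these 10, 6.31% hold TTATTTATT, and the median number of ATTTA copies is 1. A match of letters is a description and not evidence of binding.

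Promoter sequence was matched by symbol for 7 of the 10 genes in a RefSeq table (GRCm38.p6), as 300 bases around the start site. The kB consensus, the site of NF-kB, was searched on both strands. It occurred in 8.46% of 32851 such promoters and in those of Cxcl2 and Ccl9, which are printed with the matching bases in capitals. In Cxcl2 these are 2 overlapping matches that begin 97 and 96 bases before the start site, and in Ccl9 the match begins 35 bases before it.
Cxcl2 (chr5:90903649-90903948, plus strand): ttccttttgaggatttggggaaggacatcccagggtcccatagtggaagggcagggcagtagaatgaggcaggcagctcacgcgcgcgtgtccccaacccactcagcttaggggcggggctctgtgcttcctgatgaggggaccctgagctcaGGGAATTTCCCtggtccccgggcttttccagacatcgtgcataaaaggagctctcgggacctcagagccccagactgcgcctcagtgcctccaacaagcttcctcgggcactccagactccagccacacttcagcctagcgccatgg
Ccl9 (chr11:83578587-83578886, minus strand): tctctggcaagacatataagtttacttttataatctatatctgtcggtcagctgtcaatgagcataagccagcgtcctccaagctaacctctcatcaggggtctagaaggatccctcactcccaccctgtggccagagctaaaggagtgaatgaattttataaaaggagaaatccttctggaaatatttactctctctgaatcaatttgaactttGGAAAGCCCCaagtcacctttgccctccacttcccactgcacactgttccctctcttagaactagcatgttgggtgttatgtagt

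The values are log2 expression per gene as the authors deposited them, so a difference of 1 is a factor of 2. No counts are given and the depth of each library is unknown. Ybx1 (chr4:119277981-119294604, minus strand), the targeted gene, had knockout values of 7.29 (replicate 1) and 8.33 (replicate 3), with 10.002 in WT replicate 5 and 19.70 in WT replicate 4. The knockout values lay below both WT values but were not at 0, and the limma difference was -7.04 (SE 3.49, adjusted p = 0.826). Without WT replicate 4 the Ybx1 difference was -2.19. WT replicate 4 stood apart across the table. Among the 4274 genes whose median over the other libraries was 8 or more, 18.6% were at 17 or above in WT replicate 4 and 30.2% lay between 5 and 7. In each of the other libraries 1 of these genes was at 17 or above, and at most 0.608% lay between 5 and 7. Of the cytokine genes, Il1b, Il1rn and Ccl9 were in the high range of WT replicate 4, and Cxcl2 and Osm in the low range. Each result for the 10 genes is therefore given against WT replicate 5 as well as against both WT libraries. Counts for the related lists and myeloid markers are given against WT replicate 5, and against WT replicate 4 or both.

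Against WT replicate 5, all 10 cytokine and chemokine genes were lower in both knockout libraries, by 8.20-fold for Tnfsf9, 2.67-fold for Ccl6, 2.24-fold for Il1b and between 1.16-fold and 1.89-fold for the other 7. Both knockout values lay below WT replicate 5 in 33.4% of all tested genes and above it in 41.8%. They lay below it in 40% of the 4288 genes at 8 or above in that library, a range that holds all 10. Against WT replicate 4 the same knockout libraries were lower in 6 of the 10 (50.7% of all tested genes) and higher in Ccl3, Ccl4, Cxcl2 and Osm. So 6 of 10 had both knockout values below both WT values, beside 18.8% of all tested genes, and 0 of 10 had them above, beside 17.3%. The 10 genes were chosen with earlier results of these data known, so these counts are a description only. With centring of each library and WT replicate 4 left out, Ccl3 and Tnf overlapped WT replicate 5 between the knockout libraries. After quantile normalization without that library, Tnf alone did.

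By limma, 0 of the 10 passed an adjusted p under 0.05 (adjusted p from 0.826 to 0.929), and 0% of all 17303 tested genes did. No other test was run across all genes, since the table holds no counts. At an unadjusted p under 0.05, 1 of the 10, Tnfsf9, was lower, beside 3.09% of all tested genes that were lower at that threshold. The fit without WT replicate 4 takes its spread from the knockout pair alone. Its SE and p-values, here and for single genes below, therefore hold no spread between WT libraries. Without WT replicate 4, Il1b, Il1rn and Tnfsf9 were below 0.05 unadjusted, beside 4.99% of all tested genes in the lower direction, and the adjusted p ran from 0.466 to 0.759. The median difference over the 10 genes, knockout minus WT, was -1.13 against -0.09 over all tested genes, and -0.87 against 0.07 without WT replicate 4. The median over the 10 genes was -0.63 without knockout replicate 1, -1.62 without knockout replicate 3 and -0.16 after quantile normalization. A test of 2 libraries against 2 by exact permutation cannot give a p below 0.333.

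**Figure D1:**
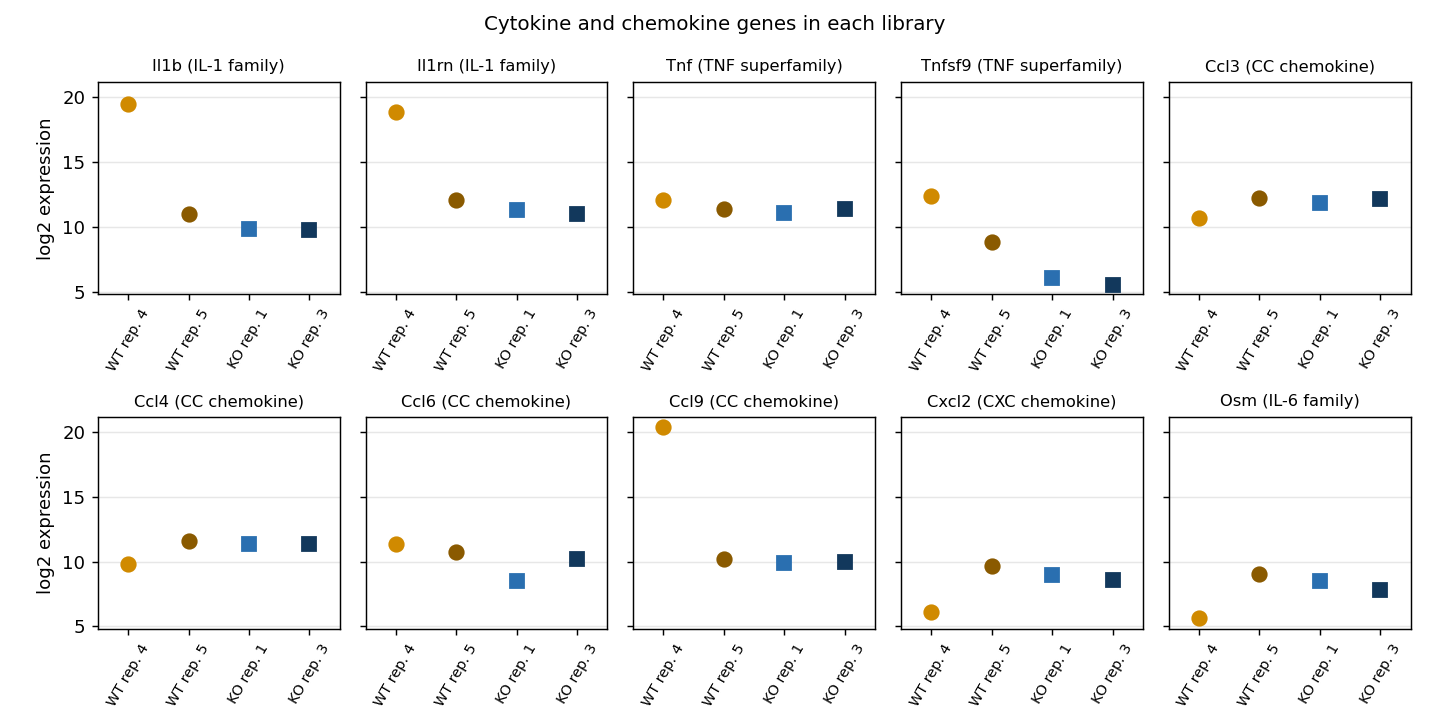
Log2 expression (vertical axis) of each of the 10 genes in the 4 libraries (horizontal axis), 1 point per library, circles for WT and squares for knockout. WT replicate 4 lies at 18.85 to 20.41 for Il1b, Il1rn and Ccl9 and at 5.66 and 6.08 for Osm and Cxcl2, while among the other libraries Tnfsf9 and Ccl6 spread the most.

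The interleukin-1 genes were lower in both knockout libraries than in either WT library. Il1b (chr2:129364570-129371139, minus strand) encodes interleukin-1 beta, a fever-inducing cytokine that is stored as a precursor and cut by caspase-1. It was at 9.87 and 9.77 in knockout replicates 1 and 3, 10.98 in WT replicate 5 and 19.44 in WT replicate 4. The knockout pair differed by 0.10 and lay 1.12 below the nearer WT library, so the gap exceeded the difference within the knockout pair. It was smaller than the 8.46 between the WT libraries. The limma difference was -5.40 (SE 3.53, adjusted p = 0.826) with all libraries and -1.16 (SE 0.19, unadjusted p = 0.0146, adjusted p = 0.466) without WT replicate 4.

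Il1rn (chr2:24336853-24351494, plus strand) encodes the interleukin-1 receptor antagonist, which occupies the receptor without signalling. It was at 11.28 and 10.99 in knockout, 12.05 in WT replicate 5 and 18.85 in WT replicate 4. The knockout pair lay below either WT library as deposited, but overlapped the WT values after quantile normalization, where the limma difference was -0.17. Without WT replicate 4 the difference was -0.92 (SE 0.24, unadjusted p = 0.0436, adjusted p = 0.477). Il1b relative to Il1rn in the same library, on the log2 scale, was -1.41 and -1.22 in knockout, -1.07 in WT replicate 5 and 0.59 in WT replicate 4. The knockout ratios lay nearer to WT replicate 5 than to WT replicate 4, and below both.

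The TNF superfamily genes differed from each other in size. Tnfsf9 (chr17:57105325-57107757, plus strand) encodes 4-1BB ligand, which co-stimulates T cells. It was at 6.09 and 5.54 in knockout, 8.85 in WT replicate 5 and 12.40 in WT replicate 4. The knockout pair lay below either WT library with a gap of 2.76 to the nearer one, beyond the 0.55 within the pair. The gap was smaller than the 3.55 between the WT libraries. Its rank among the tested genes was at the 84.0th percentile in WT replicate 5 and the 92.8th in WT replicate 4, against the 55.2nd and 52.2nd in knockout. The limma difference was -4.81 (SE 1.35, unadjusted p = 0.0184, adjusted p = 0.826), and -3.04 (SE 0.42, adjusted p = 0.466) without WT replicate 4.

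Tnf (chr17:35199381-35202007, minus strand) encodes tumor necrosis factor, the cytokine whose 3′ UTR held the most copies of TTATTTATT among these genes. It was at 11.05 and 11.35 in knockout, 11.41 in WT replicate 5 and 12.05 in WT replicate 4. Knockout replicate 3 lay 0.06 below WT replicate 5, less than the 0.30 between the knockout libraries. The limma difference was -0.53 (SE 1.48, adjusted p = 0.921), and -0.21 without WT replicate 4. With all libraries it turned to 1.36 after quantile normalization. Within the same library, Tnf stood 4.96 and 5.81 above Tnfsf9 in knockout, 2.56 above it in WT replicate 5 and 0.35 below it in WT replicate 4, where the value of Tnf minus Tnfsf9 was -0.35.

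The 4 CC chemokine genes lie within 91.8 kb on chromosome 11 (chr11:83572919-83664683) and differed little from WT replicate 5, apart from Ccl6. Ccl3 (chr11:83647844-83649355, minus strand) encodes MIP-1 alpha and Ccl4 (chr11:83662584-83664683, plus strand) MIP-1 beta, chemokines that draw monocytes and T cells. Ccl3 was at 11.85 and 12.14 in knockout, 12.26 in WT replicate 5 and 10.65 in WT replicate 4. Ccl4 was at 11.32 and 11.38 in knockout, 11.60 in WT replicate 5 and 9.80 in WT replicate 4. For both genes the knockout libraries lay between the WT libraries. Without WT replicate 4 the limma difference was -0.26 (SE 0.24) for Ccl3 and -0.25 (SE 0.18) for Ccl4, and with all libraries 0.54 and 0.65. Ccl3 minus Ccl4 ranged from 0.53 to 0.85 over the 4 libraries, so the pair kept nearly the same ratio in WT replicate 4 as elsewhere.

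Ccl6 (chr11:83587882-83593087, minus strand) and Ccl9 (chr11:83572919-83578636, minus strand) encode chemokines of mouse myeloid cells that act on CCR1. Ccl6 was at 8.51 and 10.18 in knockout, 10.77 in WT replicate 5 and 11.37 in WT replicate 4. The knockout pair lay below either WT library, but the 1.66 between the knockout libraries exceeded the gap of 0.59 to WT replicate 5. The limma difference was -1.72 (SE 1.15, adjusted p = 0.826), and -1.42 without WT replicate 4. It was -0.89 without knockout replicate 1 and -2.55 without knockout replicate 3. Ccl9 was at 9.93 and 9.94 in knockout, 10.19 in WT replicate 5 and 20.41 in WT replicate 4. Its difference of -5.36 (SE 4.05, adjusted p = 0.826) came to -0.25 (SE 0.18) without WT replicate 4, so nearly all of it rested on that library. Unlike Ccl3 and Ccl4, Ccl6 minus Ccl9 moved from 0.58 in WT replicate 5 to -9.04 in WT replicate 4, and was -1.41 and 0.24 in knockout.

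Cxcl2 and Osm shared a pattern, with the knockout libraries between WT replicate 5 and a low WT replicate 4. Cxcl2 (chr5:90903871-90905938, plus strand) encodes MIP-2, a CXCR2 ligand that recruits neutrophils. It was at 8.98 and 8.60 in knockout, 9.64 in WT replicate 5 and 6.08 in WT replicate 4. Osm (chr11:4236420-4241026, plus strand) encodes oncostatin M, an interleukin-6 family cytokine that signals through gp130. It was at 8.50 and 7.83 in knockout, 9.06 in WT replicate 5 and 5.66 in WT replicate 4. The differences over all libraries were 0.93 (SE 1.35) for Cxcl2 and 0.80 (SE 1.30) for Osm, and without WT replicate 4 they were -0.85 (SE 0.28, adjusted p = 0.506) and -0.90 (SE 0.42, adjusted p = 0.572). The gap to WT replicate 5 was 0.66 for Cxcl2, beyond the 0.38 within the knockout pair, and 0.56 for Osm, within its 0.67. Both gaps were smaller than the difference between the WT libraries, 3.56 for Cxcl2 and 3.39 for Osm.

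**Figure D2:**
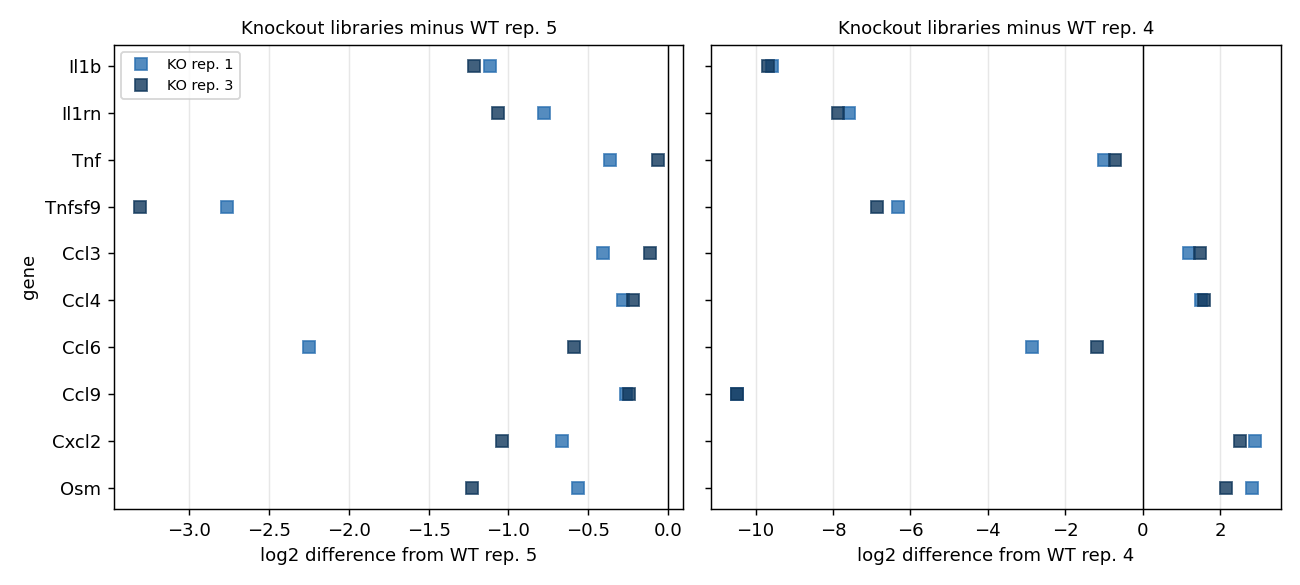
Log2 difference of each knockout library (squares) from WT replicate 5 (left, horizontal axis) and from WT replicate 4 (right, horizontal axis, on a different scale) for the 10 genes (vertical axis). All 10 genes lie below 0 on the left, with Tnfsf9 at -2.76 and -3.31, whereas on the right 6 lie below 0 and Ccl3, Ccl4, Cxcl2 and Osm above it.

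Which genes stood clear of the spread thus depended on the WT library used. Without WT replicate 5, limma called 7 of the 10: Il1b, Il1rn, Tnfsf9 and Ccl9 lower, and Ccl3, Ccl4 and Cxcl2 higher. That fit called 4960 genes across the table and compares both knockout libraries with WT replicate 4 alone. Within the 3 libraries titled RNA-seq1, without knockout replicate 3, 6 of the 10 had negative and 4 positive differences, the same counts as with all libraries. That fit takes its spread from the WT pair, which differed by up to 10.2 in these genes (Ccl9). It called 88 genes across the table and 0 of the 10, and says little about whether they differed. Only Il1b, Ccl9 and Tnfsf9 had both knockout values below both WT values as deposited, after centring and after quantile normalization with all 4 libraries, among these 10 genes and settings.

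The authors' deposited table called Tnfsf9 and Il1rn lower in knockout, 2 of 10, beside 3.83% of its 20610 genes with a fold change. Of the 816 genes it called in either direction, 789 were lower. In the sample columns without WT replicate 4, the difference was -3.04 for Tnfsf9 and -0.92 for Il1rn. In the authors' deposited table Tnfsf9 had a log2 fold change of -5.27 with an adjusted p of 3.34e-04, and Il1rn -6.46 with an adjusted p of 0.0248. Cxcl2 had -4.93 with an adjusted p of 0.0533 in the authors' deposited table, and Tnf -4.30 with 0.110. For Il1b and Ccl9 the authors' deposited table lists fold changes of -8.46 and -9.34 with a p-value of exactly 1, as for 1565 genes that have a fold change.

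The fold changes of the authors' deposited table were set against the log2 ratio of mean linear values, knockout over WT, from the sample columns. They were within 0.5 of each other for 7 of the 10 genes and for 52.1% of 17185 tested genes. For Tnf the sample columns give -0.56 where the authors' deposited table lists -4.30. For Ccl3 they give 0.34 against -2.65, and for Cxcl2 0.05 against -4.93, so the sign differs for both. A deposited value more than 2 below the sample columns occurred in 19.5% of tested genes, and more than 2 above in 0.419%.

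**Figure D3:**
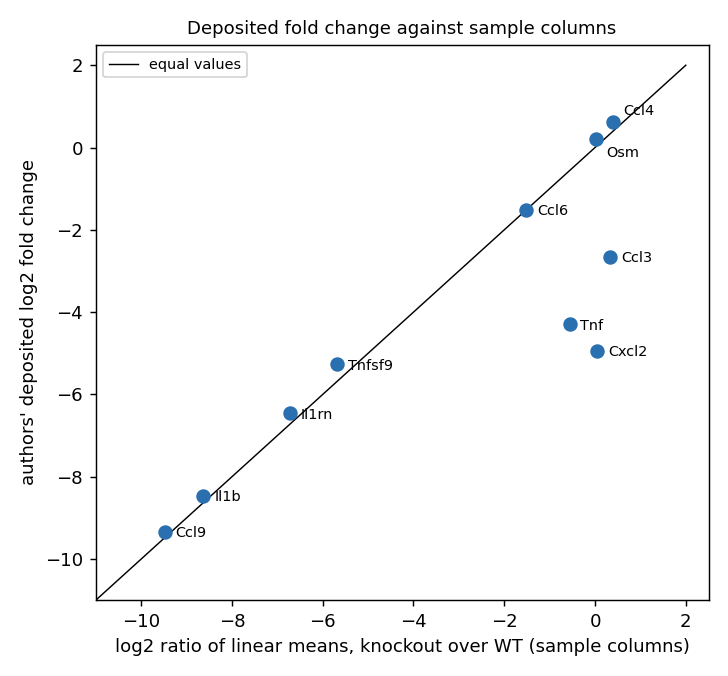
The authors' deposited log2 fold change (vertical axis) against the log2 ratio of mean linear values, knockout over WT, from the sample columns (horizontal axis), 1 point per gene, with a line of equal values. Tnf, Ccl3 and Cxcl2 lie under the line, at -3.74, -2.99 and -4.98 from it, and the other 7 genes within 0.5 of it.

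The 5 related gene lists were read beside these genes, and of all their tested genes limma called 0. Ccl24, at low values in every library, was the 1 gene at an unadjusted p under 0.05. The receptors of these cytokines did not share 1 direction. Of 14 listed receptor genes 12 were tested, and limma called 0 in either direction. Of the 12, 6 were below WT replicate 5 in both knockout libraries and 2 above it (median difference -0.24). The same all-gene shares of 33.4% and 41.8% hold for each list here. Against WT replicate 4, 3 of the 12 were below and 7 above, beside 8772 and 6665 of all 17303 tested genes. Il1r2, the interleukin-1 decoy receptor, was at 9.45 and 10.41 in knockout, 6.03 in WT replicate 5 and 8.34 in WT replicate 4. The knockout pair lay above either WT library, opposite to Il1b, with a limma difference of 2.74 (SE 1.08, adjusted p = 0.826). Tnfrsf9, which encodes 4-1BB, the receptor of the Tnfsf9 product, was at 5.62 and 4.605 in knockout, 7.59 in WT replicate 5 and 4.98 in WT replicate 4. The receptor was thus 2.48 below WT replicate 5, but overlapped WT replicate 4, and its difference turned to 0.13 without WT replicate 5. Tnfrsf1b, a TNF receptor, had knockout values of 10.41 and 9.91 beside 11.49 and 20.72 in WT replicates 5 and 4. Il1rap, the co-receptor of interleukin-1, had knockout values of 8.36 and 9.19 beside 8.53 and 5.72. Cxcr1 was listed at 0 in every library.

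Genes that process these cytokines, such as inflammasome parts that mature interleukin-1 beta, lay close to WT replicate 5. Of 9 tested, limma called 0, and 2 were below WT replicate 5 in both knockout libraries and 3 above it (median difference -0.03). Against WT replicate 4, 2 of the 9 were below and 7 above, beside 8772 and 6665 of all 17303 tested genes. Casp1, the caspase that cuts the interleukin-1 beta precursor, had knockout values of 8.10 and 8.17 beside 7.75 and 5.46 in WT replicates 5 and 4, above both. Rhbdf2, a partner of the TNF-releasing protease, was at 7.35 and 7.09 against 6.90 and 5.43. Pycard, the inflammasome adaptor, was at 8.71 and 9.55 against 9.38 and 19.15, and Casp4 at 9.05 and 8.86 against 8.98 and 20.12.

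Among other cytokines and chemokines, more genes lay below WT replicate 5 than above it. Of 27 tested of 32 listed, limma called 0, and 17 were below WT replicate 5 in both knockout libraries and 5 above it, beside 33.4% and 41.8% of all tested genes, the median difference being -0.75. Against both WT libraries, 12 of the 27 were lower and 2 higher, beside 18.8% and 17.3% of all tested genes. Ccl24, an eosinophil chemokine, had knockout values of 0.48 and 1.04 beside 3.23 and 3.12 in WT replicates 5 and 4, with a limma difference of -2.42 (SE 0.66, unadjusted p = 0.0164, adjusted p = 0.826). Ccl7, a monocyte chemokine, was at 1.52 and 2.14 against 3.52 and 3.98, and Tnfsf12, which encodes TWEAK, at 0.41 and 1.18 against 1.996 and 2.75. Ccl24, Ccl7 and Tnfsf12 lay below log2 5 in every library, so the stricter filter, set at 5, left them out. With a pseudocount of 1 their differences shrank from -2.42, -1.92 and -1.58 to -1.89, -1.66 and -1.17. Mif, macrophage migration inhibitory factor, lay the other way, at 9.56 and 9.55 against 8.76 and 5.87.

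Among genes that induce cytokines through Toll-like receptors and NF-kB, more also lay below WT replicate 5 than above it. Of 24 tested, limma called 0, and 16 were below WT replicate 5 in both knockout libraries and 5 above it, beside 33.4% and 41.8% of all tested genes (median difference -0.41). Against both WT libraries, 7 were lower and 5 higher, beside 18.8% and 17.3% of all tested genes. The 4 with the smallest limma p are named here, and 3 of them are among the higher ones. Tlr4, the endotoxin receptor, had knockout values of 8.25 and 8.68 beside 7.48 and 5.66 in WT replicates 5 and 4. Traf6 was at 7.91 and 7.31 against 6.94 and 5.44, and Ikbkg, which encodes the NEMO subunit of the IkB kinase, at 9.33 and 9.71 against 8.62 and 5.81. Tlr4, Traf6 and Ikbkg lay above both WT libraries, while the kinase gene Irak2 lay below both, at 8.86 and 9.21 against 9.98 and 16.72.

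Regulators of cytokine mRNA showed no common direction against WT replicate 5. Of 13 tested, limma called 0, and 5 were below WT replicate 5 in both knockout libraries and 2 above it (median difference 0.01). Against WT replicate 4, 6 of the 13 were below and 7 above, beside 8772 and 6665 of all 17303 tested genes. Zfp36l1, a TTP family decay protein, had knockout values of 7.31 and 7.79 beside 8.60 and 18.59 in WT replicates 5 and 4. Tia1 and Tial1, related proteins that bind AU-rich mRNA, lay on opposite sides: Tia1 was at 7.71 and 7.16 against 6.77 and 5.31, and Tial1 at 7.67 and 7.52 against 8.23 and 13.95. Dusp1, a phosphatase that restrains the p38 pathway, was at 10.03 and 9.42 against 10.84 and 20.63.

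**Figure D4:**
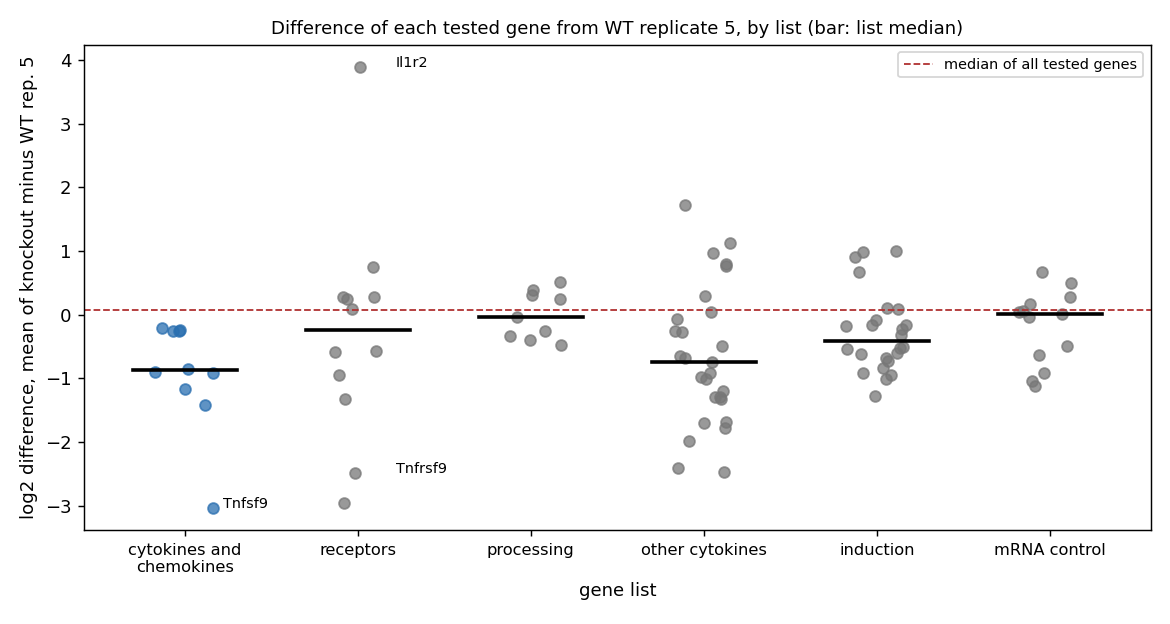
Log2 difference of the mean of both knockout libraries from WT replicate 5 (vertical axis) for each tested gene of the cytokine list and the 5 related lists (horizontal axis), with a bar at each list's median and a dashed line at the median of all tested genes, 0.07. The cytokine and chemokine genes have a median of -0.87 with none above 0, the other cytokines -0.75 with genes on both sides, and Il1r2 stands at 3.89.

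Most markers of maturing myeloid cells also lay below WT replicate 5 in both knockout libraries. Of 10 neutrophil markers, 8 were below WT replicate 5 in both knockout libraries and 0 above it (median difference -1.22), beside 33.4% and 41.8% of all tested genes. Their summed level, as log2 of the linear sum, was 14.97 and 15.38 in knockout, 16.73 in WT replicate 5 and 22.83 in WT replicate 4. Ngp was the highest of them in every library, while the second was S100a8 in WT replicate 4 and knockout replicate 1, Camp in WT replicate 5 and S100a9 in knockout replicate 3. Of 10 monocyte and macrophage markers, 7 lay below and 1 above (median difference -0.82), with sums of 13.55 and 14.25 in knockout, 14.86 in WT replicate 5 and 22.18 in WT replicate 4. Lyz2 was the highest in every library, followed by Cd68 in WT replicate 4 and by Ly6c2 in the others. Against both WT libraries, 7 of the neutrophil markers and 4 of the monocyte and macrophage markers were lower. In both lists 0 were higher, beside 18.8% lower and 17.3% higher among all tested genes. None of these neutrophil and monocyte markers was at 0 in all libraries. Of 7 progenitor and leukemia markers, 3 lay below and 2 above (median difference -0.04). Their sums were 16.71 and 16.66 in knockout and 16.09 and 23.95 in WT replicates 5 and 4, with Elane and Mpo the highest. Elane alone was at 16.48 and 16.55 against 15.84 and 23.52. Against both WT libraries, 3 of the 7 (Cd34, Kit and Meis1) were lower and 1 (Hoxa9) higher. Cd34 was at 3.41 and 2.18 against 5.82 and 3.75, and Kit at 4.23 and 3.56 against 5.35 and 4.55. Hoxa9 was at 10.66 and 10.63 against 10.03 and 7.69. The part of such cells in the cytokine values was not tested, and in bulk RNA fewer cells of a type and less RNA per cell cannot be told apart.

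Summed markers of other lineages lay below the myeloid sums in every library. Cd3e, Cd3g and Cd8a of T cells, Gzma of NK cells, Fcer1a of mast cells and basophils, Epx of eosinophils, Siglech of plasmacytoid dendritic cells and Gp1bb of megakaryocytes were listed at 0 in all 4 libraries. The summed level of the 6 T cell markers ranged from 4.25 to 5.49 in knockout and from 5.004 to 5.55 in WT. That of the 3 NK markers ranged from 0.557 to 0.563 in knockout and from 0.563 to 1.88 in WT. None of these NK markers passed the filter on low values. The eosinophil sum was 5.24 and 4.85 in knockout, 8.74 in WT replicate 5 and 5.34 in WT replicate 4. Most of the sum in WT replicate 5 was Prg2, at 8.61 there and at -1.53 and 2.11 in knockout. Siglecf was at 5.11 in WT replicate 5 and at 5.23 and 4.61 in knockout. For the other lineage lists the sums ranged from 2.08 to 7.42 in knockout and from 3.39 to 7.31 in WT.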

How the data were processed

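Per the submitters' processing notes, CASAVA, HISAT2 2.1.0, featureCounts and DESeq2 were used with GRCm38, but the notes do not say for which step. The authors deposited log2 expression values per gene in 4 library columns, whose normalization is not given in the sources used here, together with their own log2 fold change and p-values, raw and adjusted. The header of the fold change names WT against cKO, and it is read as knockout over WT because its sign for Ybx1 and most of its values follow that ratio in the columns. No depth can be given. Genes with a log2 value of at least 0, other than a listed 0, in at least 2 libraries were tested with limma 3.58.1 (mean-variance trend, R 4.3.3), all 4 libraries in the fit, with Benjamini-Hochberg adjustment over 17303 genes and a threshold of 0.05. Differences are knockout minus WT. A fit without 1 WT library takes its spread from the knockout pair and assumes that the remaining WT library varies alike. The limma step was run on simulated data in which the spread of every library came from the knockout pair. That simulation did not reproduce WT replicate 4, so it cannot show how the test behaves with that library. A linear mean is the mean of 2 to the power of the log2 values. All 10 genes and Ybx1 are named. From each of 5 related lists (92 genes) the rule names called genes, or, with none called, the 4 lowest by limma p. Markers are named where listed at 0 in all libraries or where highest in a list, for 12 marker lists. Camp, S100a9, Ly6c2, Cd34, Kit, Meis1 and Hoxa9 were added after their values were seen. Some markers are not reported here. Members and lists were chosen with earlier results of these data known. The alternatives were 4 left-out libraries, 2 filters, 2 scalings with and without WT replicate 4, pseudocounts of 1 and 0.5, and no variance trend.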

Additional observations from a re-analysis of the deposited data

How the results depend on the processing

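No paired analysis was possible because the WT and knockout libraries share no replicate number. The number of genes called by limma ranged from 0 to 4960 when 1 library was left out (0 without WT replicate 4, 4960 without WT replicate 5, 26 without knockout replicate 1 and 88 without knockout replicate 3). The number of the 10 genes called ranged from 0 to 7 and that of the 92 related genes from 0 to 31, both highest without WT replicate 5. Over the left-out libraries, the count with every remaining knockout value below every remaining WT value ranged from 6 to 10. The count above ranged from 0 to 4. Among all 17303 tested genes the same counts ranged from 4356 to 8772 below and from 4112 to 7239 above. After quantile normalization of all libraries, 3 of the 10 were below, beside 2170 of all tested genes. Counts are thus to be read beside those of the same fit. The median difference over the 10 genes ranged from -1.62 to -0.63 and was -0.16 after quantile normalization. Quantile normalization moved the median of all tested genes by 0.26 and centring by -0.14. Relative to that median the 10 genes stood at -1.03 as deposited and after centring and at -0.32 after quantile normalization. Ccl3, Ccl4, Cxcl2 and Osm reversed to -0.26, -0.25, -0.85 and -0.90 without WT replicate 4, against 1.35, 1.55, 2.71 and 2.499 without WT replicate 5. They were at -0.18, -0.16, -0.87 and -0.93 when that library was left out before quantile normalization, and at -0.18, -0.17, -0.77 and -0.82 when it was left out before centring. Quantile normalization of all libraries reversed Tnf to 1.36 and Osm to -0.15. Tnfrsf9 ranged from -2.48 without WT replicate 4 to a reversed 0.13 without WT replicate 5, and Casp4 reversed to 0.045 with centring and without WT replicate 4. The causes were not tested. Without counts, depth sets no limit that can be given here.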
